A study of Mus musculus with 2 samples.

Results

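The committed preadipocytes and fibroblasts of inguinal white adipose tissue (iWAT) are described here from single-nucleus RNA-seq, as nuclei chosen by the genes detected in them. A nucleus was kept when it had at least 500 detected genes and at most 5% mitochondrial UMIs (a UMI, or unique molecular identifier, marks 1 captured RNA molecule). It was then selected when it held a UMI of at least 3 of the 7 genes Pdgfra, Col5a3, Bmper, Adamts12, Gria3, Gpm6b and Adam12. It could hold at most 2 of the 9 genes Pi16, Dpp4, Opcml, Limch1, Creb5, Smpd3, Anxa3, Cd248 and Mfap5, at most 2 of the 6 genes F3, Fmo2, Gdf10, Meox2, C2 and Mgp, and at most 1 of the 4 adipocyte genes Plin1, Plin4, Cidec and Lipe. This rule found 177 of 6593 kept nuclei, 75 of 3649 in the WT-labelled library and 102 of 2944 in the KO-labelled library. The levels of these 26 genes chose the nuclei, so they are given only as a description.

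The study asked how loss of Lexis, a long noncoding RNA, from adipocytes changed the cells of iWAT. Both groups were male C57BL/6 mice fed Western diet (WD) for 4 weeks and carried Lexis fl/fl, a floxed allele. The KO group (Lexis-AdKO) also carried Adipoq-cre, whose adiponectin promoter is known to be active in adipocytes. Whether this Cre acted in any of the nuclei described here was not tested. The WT group (Lexis-AdWT) held Cre- littermates. A general age is stated for most mice of the work, but none for these mice in particular. The iWAT of 3 mice was pooled for each group, the lymph node was removed and 1 library was made per group, so the 2 libraries have no replicates and no test between genotypes was possible. The intervals below are 95% intervals that cover counting error only, and UMIs of a nucleus or of a pool of mice are not independent animals. Groups follow the labels. The names of the deposited files give each library the other genotype, and the targeted gene was not analysed here, so every direction between libraries below rests on the labels.

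Adipose stroma contains fibroblast-like progenitors that express the PDGF receptor Pdgfra and secrete collagen. Interstitial progenitors, marked by Dpp4 and Pi16, lie upstream of committed preadipocytes, which have raised Pparg, the nuclear receptor that drives adipocyte formation, and store little lipid. A further F3-positive stromal population is known for restraining adipogenesis. The comparisons below use 2 groups of nuclei made by the same kind of rule. Interstitial nuclei held at least 3 genes of the Pi16 list and regulatory nuclei at least 3 genes of the F3 list, each with at most 2 of the other list and at most 1 adipocyte gene. In the plots, members are the selected nuclei, and Pi16-list and F3-list nuclei are the interstitial and regulatory nuclei.

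The libraries differed in ways that touch every value. Each held 5000 barcodes, with 9376351 UMIs in the WT-labelled library and 19655049 in the KO-labelled library. Among kept nuclei the median depth was 1208 UMIs against 3974. Lymphocyte nuclei, by their own marker list, numbered 857 against 46. The libraries shared 12 barcodes, none of them among the selected nuclei. The selected nuclei had median depths of 2114 UMIs (range 790 to 11550) and 3060 UMIs (range 1029 to 9132), with 1118 and 1605 detected genes, and held 207575 and 360266 UMIs in all. A level below is in CPM (counts per 1e6 UMIs): the UMIs of a gene were added up over all nuclei of a class from 1 library and divided by the total of those nuclei.

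The selected nuclei made up 2.06% (1.62% to 2.57%) of kept nuclei in the WT-labelled library and 3.46% (2.83% to 4.19%) in the KO-labelled library. Among the stromal nuclei, meaning selected, interstitial and regulatory nuclei together, they were 75 of 276 and 102 of 571. These shares were 27.2% (22.0% to 32.8%) and 17.9% (14.8% to 21.3%). The rule counts detected genes and so depends on depth. When every nucleus was thinned to 1000 UMIs and the rule applied again, 50 of 174 and 185 of 632 stromal nuclei were selected. The shares of stromal nuclei were 28.7% (22.1% to 36.1%) and 29.3% (25.7% to 33.0%), with intervals that overlap. The limits on Pi16-list, F3-list and adipocyte genes also count detected genes and are easier to meet after thinning. These shares are therefore not those of the same nuclei at equal depth. The shares of all kept nuclei that were deep enough became 2.07% (1.54% to 2.73%) and 6.54% (5.66% to 7.52%), where the lower number of lymphocyte nuclei in the KO-labelled library also sets the denominator.

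Of the nuclei with at least 3 of the 7 selecting genes, 199 in the WT-labelled library and 854 in the KO-labelled library, many were left out again. The Pi16 list removed 59 and 313, the F3 list 17 and 120, and the adipocyte genes 81 and 512, with some nuclei removed by more than 1 list. Those removed by the adipocyte genes alone, 59 and 389 nuclei, were deeper, with median depths of 6555 and 9739 UMIs. They held Pdgfra at 154 and 47.8 CPM, against 1031 (897 to 1179) and 844 CPM in the selected nuclei. Acsl1, an acyl-CoA synthetase of adipocytes, stood at 4417 and 3815 CPM in them and at 53.0 and 74.9 CPM in the selected nuclei. In the WT-labelled library, 33 of the 75 nuclei held the minimum of 3 selecting genes and 3 held 6 or 7. In the KO-labelled library, 23 of 102 held 3 and 44 held 6 or 7.

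**Figure D1:**
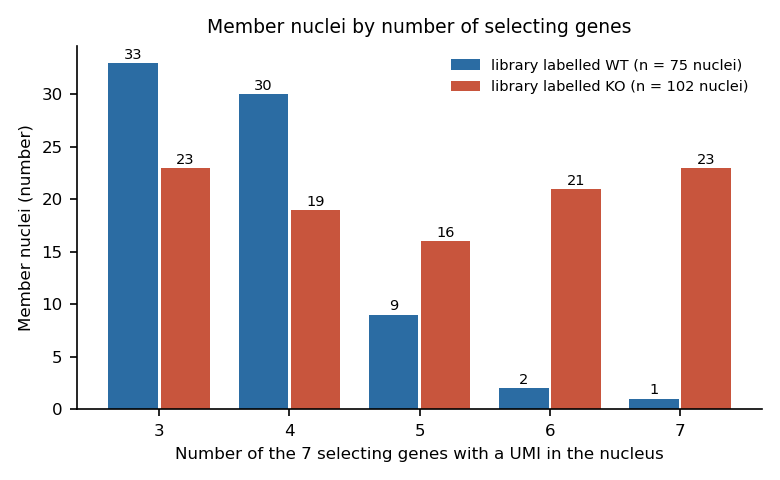
Number of selected nuclei (vertical axis) by how many of the 7 selecting genes each nucleus held (horizontal axis), for the WT-labelled library and the KO-labelled library. Nuclei with 3 or 4 genes number 63 of 75 in the WT-labelled library, while 44 of 102 in the KO-labelled library hold 6 or 7.

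Just outside the rule were 101 and 25 nuclei with 2 selecting genes that met its other limits. Pdgfra was at 432 and 202 CPM in these and at 629 and 400 CPM in the nuclei just inside, with 3 genes. Col6a3, a chain of collagen VI, was at 262 and 296 CPM outside and at 796 and 1854 CPM inside. The leukocyte gene Ptprc went the other way, with 916 and 659 CPM outside and 539 and 272 CPM inside.

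The label was set against markers that the rule did not use, with the reservation that nuclei chosen by stromal genes can be expected to hold others. The 12 pan-stromal genes of collagen and fibroblast identity were all detected. Summed, they stood at 23644 CPM in the WT-labelled library and 26683 CPM in the KO-labelled library, against 5276 and 8219 CPM in all other kept nuclei, 21106 and 24493 CPM in interstitial nuclei and 52589 and 43784 CPM in regulatory nuclei. Endothelial genes summed to 91.5 and 158 CPM in the selected nuclei against 426 and 270 CPM in the other nuclei, with 5 and 4 of 12 genes at 0. Summed mesothelial genes were at 19.3 and 0 CPM. Schwann cell genes were higher than in the other nuclei, at 342 and 619 CPM against 154 and 305 CPM, with 5 and 4 of 10 at 0, Sox10 among them in both libraries. Mural genes were at 164 and 616 CPM against 182 and 236 CPM. The part of Schwann cell genes in the results below was not tested.

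Other cell types were nevertheless represented. At least 3 genes of a macrophage, lymphocyte, endothelial, mural, myocyte or epithelial list were held by 27 of 75 and 23 of 102 selected nuclei, called mixed nuclei here, most often macrophage genes (17 and 12 nuclei), lymphocyte genes (17 and 2) and mural genes (1 and 8). Macrophage genes summed to 1821 CPM in the WT-labelled library and 552 CPM in the KO-labelled library, against 4681 and 3291 CPM in the other nuclei. Lymphocyte genes summed to 848 and 167 CPM, and 7 of 15 of them, among them Cd3e and Ms4a1, were at 0 in the KO-labelled library. Results are therefore also given without these nuclei where that matters, leaving 48 and 79. The definition did not use the lists of Schwann cells or lymphoid stroma, of which 0 and 4 nuclei held at least 3 Schwann genes and 6 and 0 nuclei at least 3 lymphoid stroma genes. Adipoq, the adiponectin gene, was at 38.5 and 183 CPM in the selected nuclei and at 100 and 321 CPM in lymphocyte nuclei, which should lack it. With every nucleus thinned to 1000 UMIs, it was found in 5.5% and 15.7% of selected nuclei and in 9.7% and 22.5% of lymphocyte nuclei, so its presence in selected nuclei was read as background.

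A group of 9 nuclei in the KO-labelled library went against the label. Clustered within their library on variable genes, these 9 nuclei held a mean of 3.11 selecting genes, and Pdgfra was represented by 1 UMI in all of them together. Their leading genes were Lin7a, Adgrl3, Stac, Myh11 and Tbc1d1. Myh11, the smooth muscle myosin heavy chain, was at 993 CPM, in 8 of the 9 nuclei, and had no UMI in the other selected nuclei of that library. Lin7a was at 2739 CPM against 6.12 CPM. Mural genes other than Pdgfrb summed to 5207 CPM, against 126 to 190 CPM in the other groups of that library, and 8 of the 9 nuclei held at least 3 mural genes. This group also held 85 of the 207 Pparg UMIs of the selected nuclei in that library, at 2559 CPM. It is called here by its leading genes, Lin7a and Myh11.

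Of the genes with at least 30 counts in each library, the 12 with the largest ratios over all other kept nuclei were Pde11a, Smoc2, Pdgfrb, Thsd7a, Sned1, Arhgef25, Fap, Col6a3, Ifi205, Lum, Bicc1 and Col6a2. Among all 12691 genes compared, 400 (3.15%) were at least 2-fold higher than in all other nuclei in both libraries with intervals above 1, and 392 (3.09%) were at least 2-fold lower. The selection makes such differences a description. Smoc2, a matricellular protein, was at 212 CPM (154 to 285) in the WT-labelled library and 650 CPM (569 to 738) in the KO-labelled library, against 27.3 and 63.8 CPM in all other nuclei. Fap, a serine protease of activated fibroblasts, was at 226 and 655 CPM against 25.8 and 97.8 CPM. Lum, the collagen-binding proteoglycan lumican, was at 535 and 780 CPM against 78.3 and 139 CPM. Col6a3 was at 1151 and 1627 CPM against 146 and 263 CPM. Bicc1, an RNA-binding protein, was at 222 and 1324 CPM against 33.3 and 245 CPM, and Ifi205, an interferon-inducible gene, was at 149 and 425 CPM against 23.2 and 69.8 CPM. Arhgef25, a guanine nucleotide exchange factor, was at 164 and 103 CPM against 19.7 and 15.2 CPM. In each of these genes the selected nuclei lay above the other nuclei of the same library, and for all but Bicc1 above those of both libraries. None of Fap, Bicc1, Ifi205 and Arhgef25 was at least 2-fold higher than in interstitial or in regulatory nuclei in both libraries. Interstitial nuclei held Fap at 125 and 365 CPM and Bicc1 at 158 and 1037 CPM. They held Ifi205 at 121 and 253 CPM and Arhgef25 at 87.8 and 65.6 CPM. Regulatory nuclei held Fap at 177 and 246 CPM and Bicc1 at 329 and 1303 CPM. In these, Ifi205 was at 278 and 372 CPM and Arhgef25 at 152 and 84.1 CPM.

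The comparison with interstitial nuclei asked which genes separate committed preadipocyte and fibroblast nuclei from the progenitors upstream of them. There were 191 interstitial nuclei in the WT-labelled library and 425 in the KO-labelled library, with median depths of 1601 and 3343 UMIs. A gene was called when it was past 2-fold with an interval beyond 1 in both libraries, with the rule genes and mitochondrial genes left out. Of 5612 genes, 60 (1.07%) were called higher in the selected nuclei and 176 (3.14%) lower. The rule sets these 2 classes apart by Pi16-list genes, and genes that accompany that list had to follow. Over all genes compared the median log2 ratio was -0.11 in the WT-labelled library and -0.09 in the KO-labelled library. The higher genes included Pdgfrb, Pparg and 4 collagen genes of basement membranes, and the lower genes included Fbn1, Fn1 and Sema3c.

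**Figure D2:**
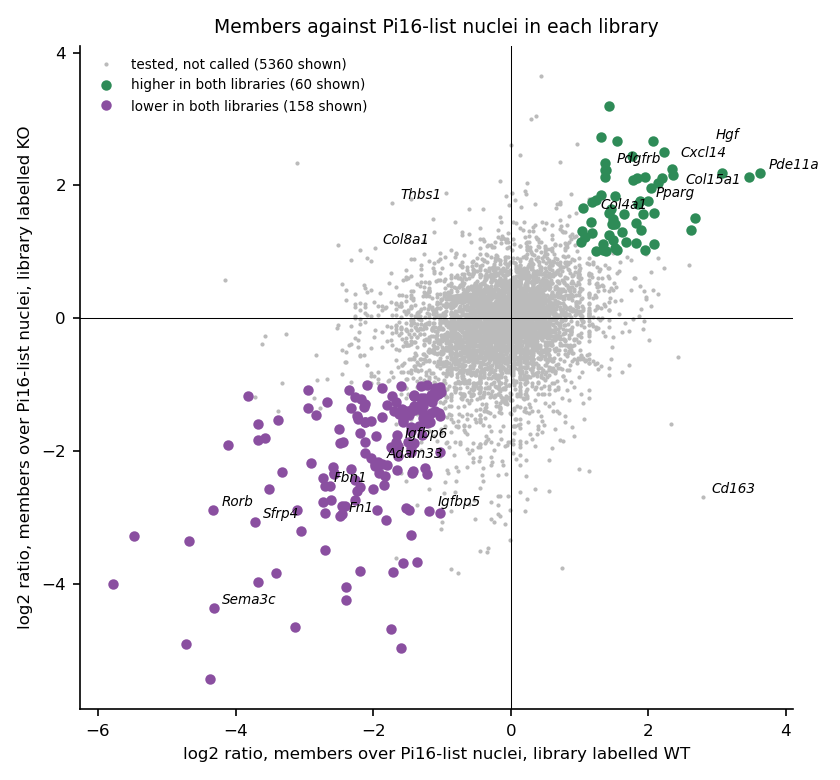
Log2 ratio of the level in selected nuclei to that in interstitial nuclei for each gene compared, in the WT-labelled library (horizontal axis) and the KO-labelled library (vertical axis), with genes called higher or lower in both libraries coloured. The plot holds 60 higher and 158 lower genes, and the 18 lower genes with a count of 0 in a library are not drawn; Sema3c lies among the lowest and Col15a1 among the highest of the labelled genes.

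Of the 11 committed preadipocyte genes compared, 4 were called higher and none lower, with median log2 ratios of 0.97 and 1.68. Pdgfrb, a PDGF receptor of progenitors and of mural cells, was at 458 CPM (370 to 559) in the WT-labelled library and 364 CPM (304 to 431) in the KO-labelled library. Interstitial nuclei held it at 176 and 77.1 CPM, so the ratios were 2.61 (1.92 to 3.56) and 4.72 (3.67 to 6.07). Pparg was at 183 CPM (130 to 251) and 575 CPM (499 to 658), from 38 and 207 UMIs. Interstitial nuclei held Pparg at 46.1 and 169 CPM, so the ratios were 3.97 (2.27 to 7.13) and 3.40 (2.83 to 4.09). Mural genes moved with Pparg in the KO-labelled library, through the group led by Lin7a and Myh11. Without the nuclei that held genes of another cell type, Pparg was at 264 and 446 CPM and its ratios were 5.73 and 2.64. In all other kept nuclei, adipocytes included, Pparg was at 154 and 1152 CPM.

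Depth was equalised to see whether detection bore this out. After thinning to 1000 UMIs, Pparg was found in 13.7% (6.8% to 23.8%) of selected nuclei labelled WT and 29.4% (20.8% to 39.3%) labelled KO. The shares were 3.1% and 9.4% of interstitial nuclei, and 2.5% and 7.5% of lymphocyte nuclei. The part of background in these shares was not tested. Before thinning the shares of selected nuclei were 24.0% and 54.9%. Pdgfrb was found in 43.8% and 27.5% of thinned selected nuclei, in 14.7% and 5.1% of interstitial nuclei and in 1.6% and 0% of lymphocyte nuclei. Both genes were thus detected more often in selected than in interstitial nuclei of the same library at equal depth.

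Among secreted factors, Cxcl14, a chemokine, was at 145 CPM (97.5 to 206) and 328 CPM (271 to 392) against 28.5 and 69.2 CPM in interstitial nuclei, with ratios of 5.07 (2.56 to 10.6) and 4.73 (3.63 to 6.18). Hgf, hepatocyte growth factor, was at 111 and 27.8 CPM, from 23 and 10 UMIs, against 13.2 and 6.07 CPM. Its ratios of 8.42 (3.33 to 25.3) and 4.57 (1.71 to 12.2) were 11.8 and 4.36 without nuclei that held genes of another cell type, where 17 and 7 UMIs were left and it fell under the count minimum. Enpp2, the lysophospholipase D autotaxin, was at 482 and 319 CPM against 105 and 74.1 CPM, with ratios of 4.58 (3.21 to 6.60) and 4.31 (3.31 to 5.61). Smoc2 had ratios of 3.86 (2.31 to 6.59) and 4.37 (3.63 to 5.24). When the rule was applied after thinning, which changes the nuclei compared, the log2 ratio in the WT-labelled library was 0.30 for Cxcl14 and -0.21 for Smoc2. With the same nuclei thinned, Cxcl14 was found in 11.0% of selected and 0.61% of interstitial nuclei of that library, and Smoc2 in 21.9% and 5.5%. Their ranges over the alternatives in the KO-labelled library were 1.98 to 2.94 and 1.86 to 2.66.

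Pde11a, a phosphodiesterase of cyclic nucleotides, was among the 8 genes with the largest ratios. It was at 217 CPM (158 to 290) and 927 CPM (830 to 1032), against 17.6 and 203 CPM in interstitial nuclei, with ratios of 12.4 (5.76 to 30.3) and 4.56 (3.91 to 5.32). At equal depth it was found in 19.2% and 44.1% of selected nuclei and in 0% and 8.5% of interstitial nuclei. Slc1a3, a glutamate transporter, was at 96.4 and 108 CPM against 8.78 and 24.9 CPM. All other kept nuclei held Slc1a3 at 110 and 473 CPM, so it was not particular to the selected nuclei. Spaar was at 91.5 and 119 CPM against 21.9 and 18.8 CPM. Fzd1, a Wnt receptor, was at 135 and 61.1 CPM against 21.9 and 24.3 CPM, with ratios of 6.15 (2.90 to 14.2) and 2.51 (1.42 to 4.33).

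Of 14 basement membrane genes compared, 4 collagen genes were called higher and none lower, with median log2 ratios of 0.30 and 0.77. Col4a1, a chain of collagen IV, was at 1262 CPM (1114 to 1425) and 2104 CPM (1957 to 2259), against 557 and 627 CPM in interstitial nuclei. Its ratios were 2.27 (1.90 to 2.70) and 3.36 (3.05 to 3.69). Col4a2, its partner chain, had ratios of 2.37 (1.82 to 3.08) and 3.44 (3.01 to 3.92). Col15a1, a multiplexin collagen of basement membrane zones, was at 361 CPM (284 to 453) and 389 CPM (327 to 459) against 70.2 and 87.4 CPM, with ratios of 5.15 (3.36 to 8.05) and 4.44 (3.50 to 5.65). Col18a1, the other multiplexin, had ratios of 4.25 (2.69 to 6.83) and 2.17 (1.41 to 3.26).

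The laminins and linker proteins of the same matrix were not called. Lamb1 was at 381 and 314 CPM against 151 and 220 CPM, with ratios of 2.51 and 1.42. Nid1, which links laminin to collagen IV, was at 458 and 772 CPM in selected and at 812 and 1038 CPM in interstitial nuclei. Lama2 was at 183 and 1790 CPM against 248 and 1137 CPM. Among the other collagen IV chains, Col4a4 had ratios of 1.95 and 2.02, and Col4a5 had ratios of 0.388 and 0.489 from 3 and 17 UMIs. The set was therefore uneven.

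**Figure D3:**
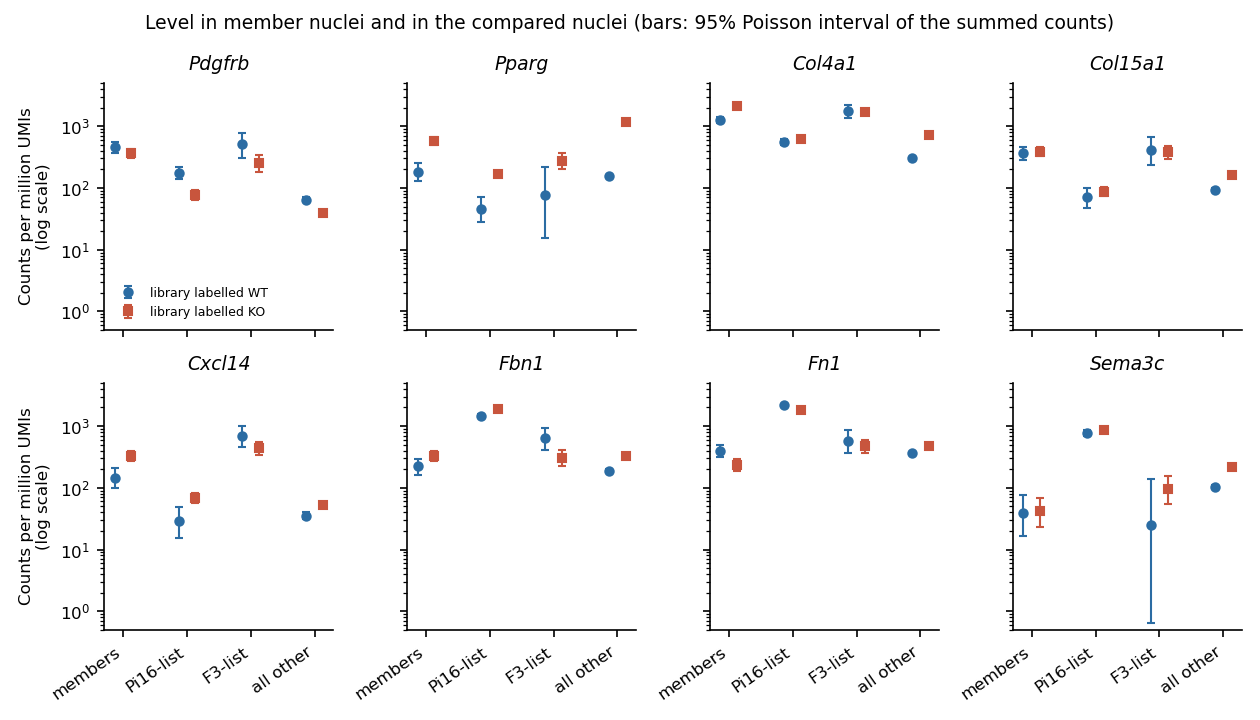
Levels of 8 genes in CPM (vertical axis, log scale) in selected, interstitial, regulatory and all other kept nuclei of each library, with 95% Poisson intervals that cover counting error only. Pdgfrb, Pparg, Col4a1, Col15a1 and Cxcl14 lie higher in selected than in interstitial nuclei of both libraries, while Fbn1, Fn1 and Sema3c lie lower.

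Of 26 matrix glycoproteins, 1 was called higher and 7 lower, with median log2 ratios of -0.95 and -0.29. Lum was the higher gene, at ratios of 2.12 (1.62 to 2.78) and 2.33 (2.01 to 2.69). Fbn1, the microfibril protein fibrillin, was at 222 CPM (162 to 296) and 328 CPM (271 to 392), against 1435 and 1880 CPM in interstitial nuclei. Its ratios were 0.154 (0.112 to 0.208) and 0.174 (0.144 to 0.209). Fn1, fibronectin, was at 390 CPM (310 to 485) and 233 CPM (186 to 289) against 2170 and 1835 CPM, with ratios of 0.180 (0.142 to 0.226) and 0.127 (0.101 to 0.158). At equal depth Fn1 was found in 17.8% and 12.7% of selected nuclei and in 69.3% and 63.0% of interstitial nuclei. Efemp1, a fibulin, was at 154 and 247 CPM against 417 and 639 CPM. Ecm1 was at 159 and 164 CPM against 428 and 425 CPM.

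Fibrillar collagens did not separate the classes in the same manner. Of 6 compared, 1 was called higher and none lower, with medians of 0.16 and 0.17. Col3a1 was at 8580 and 7156 CPM in selected and at 6579 and 7030 CPM in interstitial nuclei. Col27a1, a minor fibrillar collagen, was at 145 and 155 CPM against 30.7 and 27.3 CPM, with ratios of 4.71 (2.42 to 9.60) and 5.69 (3.77 to 8.62). Of 7 other collagens, 1 was called higher and 2 lower. Col6a3 had ratios of 2.24 (1.87 to 2.70) and 2.74 (2.47 to 3.03). Col14a1, a collagen on fibril surfaces, was at 77.1 and 125 CPM against 511 and 662 CPM, with ratios of 0.151 (0.0848 to 0.250) and 0.189 (0.137 to 0.254). Col12a1, of the same family, had 4 and 5 UMIs and ratios of 0.120 (0.0319 to 0.321) and 0.109 (0.0351 to 0.259).

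Of 8 guidance and adhesion genes compared, 4 were called lower and none higher, with medians of -0.92 and -2.13. The lower genes were the semaphorins Sema3c and Sema3e and the membrane adhesion molecules Alcam and Negr1. Without nuclei that held genes of another cell type, Alcam and Negr1 lost the call. Their ratios stayed under 0.5 in both libraries (0.426 and 0.0795 for Alcam, 0.361 and 0.0208 for Negr1). With the rule applied after thinning, the log2 ratio of Alcam in the WT-labelled library turned from -1.57 to 1.56. Sema3c, a secreted semaphorin, was at 38.5 CPM (16.6 to 75.9) and 41.6 CPM (23.3 to 68.7), from 8 and 15 UMIs, against 768 and 850 CPM in interstitial nuclei. Its ratios were 0.0502 (0.0215 to 0.100) and 0.0490 (0.0273 to 0.0811), and it was found in 2.7% and 2.0% of thinned selected nuclei against 49.7% and 46.7% of interstitial nuclei. Sema3e had no UMI in the selected nuclei. The floor is 3 counts over the class, 14.5 CPM labelled WT and 8.33 CPM labelled KO, so interstitial nuclei held Sema3e at least 4.86-fold and at least 71.4-fold higher.

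Among the insulin-like growth factor binding proteins, which hold the ligand outside the cell, Igfbp6 was at 164 and 155 CPM against 520 and 563 CPM, with ratios of 0.315 (0.213 to 0.453) and 0.276 (0.207 to 0.361). Igfbp4 had ratios of 0.407 and 0.296. Igfbp5 was at 607 and 114 CPM against 1384 and 843 CPM, with ratios of 0.439 (0.359 to 0.532) and 0.135 (0.0964 to 0.184). Without nuclei that held genes of another cell type the Igfbp5 ratios were 0.572 and 0.148, the first no longer past 2-fold. Igfbp7 went the other way without being called, at 723 and 916 CPM against 430 and 369 CPM, with ratios of 1.68 (1.35 to 2.09) and 2.49 (2.17 to 2.85). Igfbp3 had ratios of 4.05 (2.25 to 7.49) and 0.795 (0.200 to 2.33). The family therefore did not move one way. Of 16 growth factor and receptor genes compared, 2 were called higher and 4 lower.

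Of 7 Wnt ligands and receptors compared, Fzd1 was called higher and Wnt10b lower, with median log2 ratios of 0.37 and 0.10. Of 7 Wnt transducers and inhibitors, none was called higher and the secreted inhibitors Sfrp2 and Sfrp4 were called lower, with medians of -0.02 and -0.34. Wnt10b, a ligand that blocks adipogenesis, had no UMI in the selected nuclei and was at least 3.95-fold and at least 4.67-fold higher in interstitial nuclei. Sfrp2 had 3 and 7 UMIs and ratios of 0.188 (0.0370 to 0.597) and 0.142 (0.0565 to 0.298). Sfrp4 had 2 and 5 UMIs and ratios of 0.0757 (0.00896 to 0.286) and 0.120 (0.0384 to 0.284). Tcf7l2, the Wnt-responsive transcription factor, was at 544 CPM (449 to 654) and 638 CPM (559 to 726) against 224 and 387 CPM. Its ratios of 2.43 (1.84 to 3.21) and 1.65 (1.41 to 1.92) were above 1 in both libraries but did not pass 2-fold in the KO-labelled library.

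Of the genes with the smallest ratios, Efhd1, Duoxa1, Adamts16 and Nov also had no UMI in the selected nuclei of either library. Against the floor, interstitial nuclei were at least 5.16-fold and 11.7-fold higher for Efhd1, 3.49-fold and 10.1-fold for Nov, 3.19-fold and 8.02-fold for Adamts16, and 4.25-fold and 6.27-fold for Duoxa1. Aldh1a3, a retinaldehyde dehydrogenase, had 0 and 1 UMIs, and the ratio in the KO-labelled library was 0.0197 (0.000497 to 0.111). Dact2, a Wnt signalling adaptor, had 0 and 1 UMIs, with a ratio of 0.00966 (0.000244 to 0.0541) in the KO-labelled library. These genes mark interstitial nuclei that the rule set apart.

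Of 10 adipogenic regulators compared, Pparg was the 1 called higher and none was called lower, with medians of -0.21 and -0.03. Ebf2, a factor of adipocyte commitment, was at 111 and 960 CPM against 129 and 2153 CPM. Cebpa, which acts with Pparg late in differentiation, had 6 UMIs in each library. Of 12 mature adipocyte genes compared, none was called in either direction against interstitial nuclei. Lpl, lipoprotein lipase, was at 3223 CPM (2983 to 3477) and 919 CPM (822 to 1023) against 1114 and 659 CPM, with ratios of 2.89 (2.57 to 3.25) and 1.39 (1.23 to 1.58). Fabp4, the fatty acid binding protein of adipocytes, was at 3136 and 3039 CPM against 4907 and 2449 CPM. Lymphocyte nuclei, which should lack both genes, held Fabp4 at 2866 and 3849 CPM and Lpl at 549 and 554 CPM, so the level of Fabp4 in selected nuclei was read as background. The other committed-preadipocyte marker Icam1 had 12 and 11 UMIs, and Dlk1, an inhibitor of adipogenesis, had none.

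Of the listed genes called against interstitial nuclei, 14 were higher and 29 lower. Without nuclei that held genes of another cell type, 12 of the 14 and 23 of the 29 were still called. The higher genes that lost the call were Hgf, under the count minimum, and Nr2f2, with ratios of 3.23 and 1.78. The lower ones were Alcam (0.426 and 0.0795), Cd34 (0.535 and 0.460), Fgf2 (0.173 and 0.0963), Igfbp5, Negr1 (0.361 and 0.0208) and Twsg1 (0.122 and 0.461). Igfbp5 and Cd34 were no longer past 2-fold in the WT-labelled library, and the other lower genes kept ratios under 0.5 in both libraries. Over all genes, listed or not, fewer calls were shared, with 33 of the 60 higher and 118 of the 176 lower genes still called. In that comparison 4988 genes met the count minimum. Slc1a3 (ratios of 11.4 and 3.80) and Spaar (3.32 and 5.42) fell under it.

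Only 10 and 44 regulatory nuclei were found, so the comparison with them had little depth, and it asked whether anything separates the 2 classes beyond the F3 list. Of 1892 genes, 0 (0.0%) were called higher in the selected nuclei and 19 (1.0%) lower. This split depended on the scaling, with 8 higher and 12 lower under TMM, which shifted the ratios in the WT-labelled library by 0.45 on the log2 scale, and 12 and 41 with the rule applied after thinning. Median log2 ratios over all genes were 0.00 and 0.06. Pan-stromal genes were called lower in 3 of 12, with medians of -1.32 and -0.66. Dcn, the proteoglycan decorin, was at 1884 CPM (1702 to 2080) and 3070 CPM (2892 to 3256) against 6267 and 6607 CPM in regulatory nuclei. Col1a1, the main chain of collagen I, was at 2544 and 2479 CPM against 6368 and 6060 CPM. Ly6a, the Sca-1 antigen, was at 294 and 169 CPM against 1213 and 366 CPM.

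The lower genes also held secreted matrix and complement genes. Eln, elastin, was at 159 and 153 CPM against 783 and 354 CPM, and Igfbp7 was at 723 and 916 CPM against 1718 and 2192 CPM. Serping1, the inhibitor of complement C1, was at 342 and 580 CPM against 1264 and 1261 CPM, and C1ra, a complement protease, at 164 and 108 CPM against 404 and 282 CPM. Gas6, a ligand of TAM receptors, was at 91.5 and 66.6 CPM against 379 and 498 CPM. Ecm1, Igfbp6, Gpnmb, Ly6c1, Tgfbi and Ltbp4 were the remaining genes with the smallest ratios. Under TMM scaling 12 of the 19 genes were still called, and Col1a1, Igfbp7 and C1ra were no longer past 2-fold in the WT-labelled library, while the interval of Ly6c1 there reached 1.

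With levels scaled by total UMIs, none of the genes called higher than in interstitial nuclei was also called higher than in regulatory nuclei. Pdgfrb was at 505 and 252 CPM in regulatory nuclei and Col15a1 at 404 and 378 CPM, next to 361 and 389 CPM in the selected nuclei. Col4a1 was at 1769 and 1700 CPM. Cxcl14 was at 682 and 438 CPM, Lum at 1440 and 1159 CPM and Pparg at 75.8 and 276 CPM. Of the 1892 genes compared with both classes, 3 were lower than in both (Ecm1, Igfbp6 and Ablim1, the last named after its values were seen) and none was higher than in both under the same scaling.

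The comparison of the 2 libraries asked how the selected nuclei of the group labelled KO differed from those of the group labelled WT. It had 1 library a side. Of 2146 genes with at least 50 counts, 760 (35.4%) had a KO/WT ratio of at least 2 with an interval above 1, and 201 (9.37%) a ratio of at most 0.5 with an interval below 1. With mitochondrial genes and Malat1 left out of the totals, the split was 629 to 338. Malat1, a nuclear long noncoding RNA, took 29.5% of the UMIs of the selected nuclei in the WT-labelled library and 14.6% in the KO-labelled library. The median log2 ratio over all genes tested was 0.42. Counts of genes past 2-fold therefore describe these 2 libraries first, and ratios in interstitial and macrophage nuclei of the same libraries are set beside many of the values below.

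The ratio moved with gene structure. For genes with at most 3000 bases of intron the median log2 KO/WT ratio of the selected nuclei was -0.72 (166 genes). It was -0.45 for 3000 to 20000 bases (350 genes), 0.23 for 20000 to 100000 bases (908 genes) and 1.58 above 100000 bases (672 genes). Interstitial nuclei gave -0.72, -0.47, 0.22 and 1.57, and macrophage nuclei -0.87, -0.50, 0.17 and 1.25. The difference by intron length was thus shared by nuclei of other classes. Intron lengths came from an annotation of an older mouse build and were matched by gene identifier for 97.7% of the genes tested. With 1 library per genotype, the library and the genotype cannot be told apart here.

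**Figure D4:**
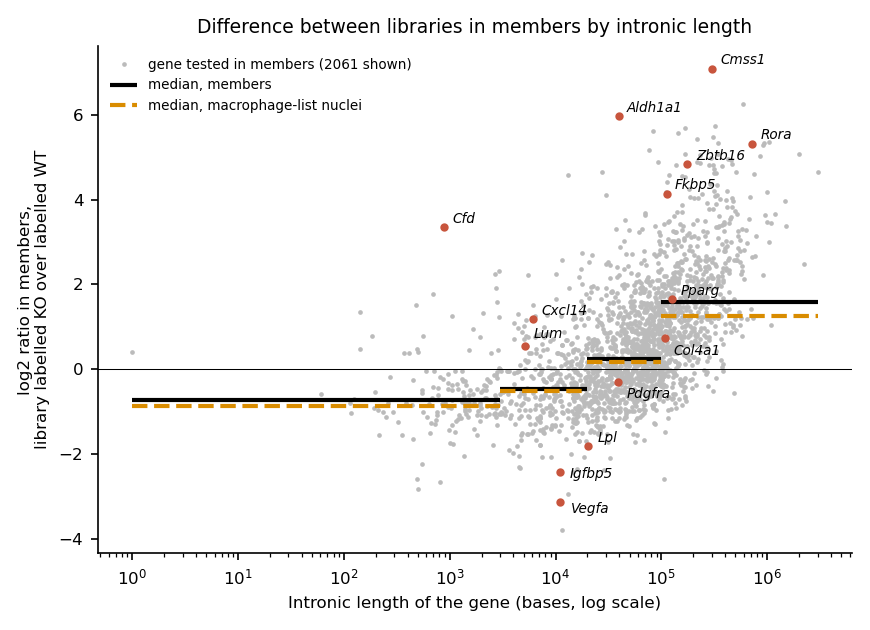
Log2 KO/WT ratio of each gene in the selected nuclei (vertical axis) by its summed intron length in bases (horizontal axis, log scale), with the median of the selected nuclei and of macrophage nuclei in each length bin. Both medians climb with intron length, from -0.72 to 1.58 in the selected nuclei and from -0.87 to 1.25 in macrophage nuclei.

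Several large ratios were shared with other classes. Cmss1 had 2 UMIs in the WT-labelled library and 473 in the KO-labelled library, a ratio of 136 (37.5 to 1128), and interstitial nuclei gave 117. Zbtb16, a transcription factor of hormone response, was at 38.5 and 1108 CPM, a ratio of 28.7 (14.4 to 67.0), with 29.3 in interstitial and 22.8 in macrophage nuclei. Fkbp5, a glucocorticoid-induced chaperone, had a ratio of 17.7 (9.17 to 39.1), with 18.5 and 42.9 in those classes. Pparg had a ratio of 3.14 (2.21 to 4.56), or 1.69 without nuclei that held genes of another cell type, and was 3.66 in interstitial and 6.64 in macrophage nuclei. Divided by the macrophage ratio, the log2 ratios of Fkbp5 and Pparg were -1.32 and -1.07.

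Gm26883 and Prkg1 had no UMI in the selected nuclei labelled WT and were at least 69.7-fold and at least 53.6-fold higher in those labelled KO. Interstitial nuclei gave ratios of 515 (1 and 1860 UMIs) for Gm26883 and 66.0 (5 and 1193 UMIs) for Prkg1, and macrophage nuclei had 0 and 112 UMIs of Gm26883 and 0 and 192 of Prkg1, so both differences were shared with those classes. Of the 279 UMIs of Prkg1, a cyclic GMP-dependent kinase, 91 came from 3 nuclei. Cacna1c, a calcium channel subunit, had 1 and 133 UMIs and a ratio of 76.6 (13.5 to 3049). Interstitial nuclei had 0 and 106 UMIs of Cacna1c, regulatory nuclei 0 and 40, and macrophage nuclei a ratio of 3.53. The direction of its difference was thus shared with those classes. Without nuclei that held genes of another cell type, the UMIs labelled KO were 35 for Cacna1c and 116 for Prkg1, so most UMIs of both lay in those nuclei, 8 of which held mural genes. The part of the mural genes in these ratios was not tested. These 3 genes were near or at 0 in the WT-labelled library, so their ratios rest on the other library.

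Calls were then also required under correction for intron length, under division by the macrophage ratio and without nuclei of mixed type. Of the 2146 genes tested between libraries, 69 were still called higher and 5 lower. Among the listed genes that were still higher was Aldh1a1, a retinaldehyde dehydrogenase, with 3 and 327 UMIs, 14.5 and 908 CPM and a ratio of 62.8 (21.3 to 306). Without nuclei of mixed type the ratio was 36.8. Interstitial nuclei gave 14.1 and macrophage nuclei 2.06. Adipocyte nuclei held Aldh1a1 at 32.8 and 1003 CPM and all other kept nuclei at 21.4 and 752 CPM. Regulatory nuclei had 0 and 186 UMIs of it, so the difference was shared with these classes. Rora, an orphan nuclear receptor of the clock, was at 91.5 and 3664 CPM, a ratio of 40.0 (25.5 to 66.7), with 16.1 in interstitial and 5.43 in macrophage nuclei. Fgf10, a growth factor of adipose development, was at 33.7 and 813 CPM, a ratio of 24.1 (11.6 to 60.5), with 43.5 in interstitial and 2.12 in macrophage nuclei. Per3, a clock gene, was at 62.6 and 364 CPM, a ratio of 5.81 (3.28 to 11.2), with 2.15 in interstitial nuclei. Nr1d2, a clock repressor, had a ratio of 17.3 (4.58 to 146), or 10.2 without nuclei of mixed type. Interstitial nuclei gave 3.78 and macrophage nuclei 3.37. Before these corrections, 8 of 11 nuclear hormone and circadian genes tested were called higher in the KO-labelled library, beside 35.4% of all genes, with a median log2 ratio of 3.40, or 2.21 after the intron correction. Of the 8, Rora, Nr1d2 and Per3 were among the 69 of 2146 genes.

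Further listed genes were among the same 69. Tgfbr3, the TGF-beta co-receptor betaglycan, was at 101 and 908 CPM, a ratio of 8.97 (5.77 to 14.7), with 4.90 in interstitial and 1.90 in macrophage nuclei. Tcf7l1, a Wnt-pathway repressor, was at 48.2 and 500 CPM, a ratio of 10.4 (5.51 to 22.0), with 15.1 and 2.21 in those classes. Ghr, the growth hormone receptor, was at 116 and 1296 CPM, a ratio of 11.2 (7.44 to 17.7), with 10.9 and 3.33. For Fgf10, Tcf7l1 and Ghr interstitial nuclei thus gave a ratio as large or nearly as large as the selected nuclei. Cfd, adipsin, was at 33.7 and 347 CPM, a ratio of 10.3 (4.85 to 26.1), with 4.36 in interstitial and 3.80 in macrophage nuclei. Lymphocyte nuclei, which should lack it, held Cfd at 126 and 408 CPM, above the selected nuclei of each library, so its level was read as background. Robo1, a receptor of Slit guidance cues, had a ratio of 27.9 (7.53 to 234), with 10.7 and 0.353. Timp3, a metalloprotease inhibitor, was at 222 and 558 CPM, a ratio of 2.52 (1.82 to 3.55), with 1.50 and 0.900.

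The 5 genes still called lower were Igfbp5, Lsp1, Lpl, Maf and Zfp36l2. Lpl was at 3223 and 919 CPM, a ratio of 0.285 (0.249 to 0.326), or 0.262 without nuclei of mixed type, with 0.591 in interstitial and 0.804 in macrophage nuclei. Igfbp5 was at 607 and 114 CPM, a ratio of 0.187 (0.128 to 0.269), with 0.609 and 0.426 in those classes. Zfp36l2, an RNA-binding protein that promotes mRNA decay, was at 448 and 74.9 CPM, a ratio of 0.167 (0.105 to 0.259), with 0.364 and 0.789, and lymphocyte nuclei held it at 446 and 233 CPM. Lsp1 and Maf are also genes of leukocytes, and macrophage genes were summed at 1821 and 552 CPM in the selected nuclei of the 2 libraries. Their part in these 2 genes was not tested.

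Other low ratios rested on few nuclei or were shared with other classes. Ccl21a, a chemokine of lymphoid stroma, had 107 UMIs in the WT-labelled library and none in the KO-labelled library, and 86 of the 107 were in 3 nuclei. The library labelled WT was at least 61.9-fold higher. Without nuclei of mixed type, 16 of the 107 UMIs were left. The KO/WT ratio was 0.0185 in interstitial and 0.0348 in macrophage nuclei, so the difference was shared with those classes. Vegfa, an angiogenic growth factor, was at 318 and 36.1 CPM, a ratio of 0.113 (0.0574 to 0.208), with 0.475 in interstitial and 0.189 in macrophage nuclei. Apoe had a ratio of 0.294 (0.236 to 0.363), with 131 of its 261 UMIs labelled WT in 3 nuclei, and 0.57 without nuclei of mixed type.

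Between libraries the genes that separated selected from interstitial nuclei were less uniform. Col18a1 had a KO/WT ratio of 0.358 (0.229 to 0.551), Fzd1 0.453 (0.247 to 0.820) and the protease Adam33 0.354 (0.225 to 0.548). Cxcl14 had 2.27 (1.51 to 3.51), with 2.43 in interstitial and 2.01 in macrophage nuclei, and its log2 ratio divided by the macrophage ratio was 0.20. Smoc2 had 3.06, and its log2 ratio of 1.62 became 0.58 after the intron correction. Neither was then past 2-fold. The other correction went the opposite way for each. The log2 ratio of Cxcl14 rose from 1.18 to 1.74 after the intron correction, and Smoc2 had a macrophage ratio of 0.814, below 1. Of 12 basement membrane genes tested, 3 were called higher and 1 lower, with a median log2 ratio of 0.77, or -0.31 after the intron correction. Of 6 fibrillar collagens 1 was called higher, with a median of 0.03, and of 10 committed preadipocyte genes 2 were called higher and 2 lower. In all 3 lists the share called higher was below the 35.4% of all genes tested. Divided by the macrophage ratio, the log2 ratios of Fzd1 and Adam33 were 1.47 and 0.18, of the opposite sign.

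The selected nuclei varied among themselves. They were clustered within each library into 4 groups on 400 variable genes, and the leading genes that define a group are a description. In the WT-labelled library the groups held 32, 27, 13 and 3 nuclei, with median depths of 2407, 1656 and 2888 UMIs in the first 3. The group of 32 was led by Dqx1, Nnat, Usp35, Col4a4 and Mical2, and all 25 UMIs of Dqx1 came from 1 nucleus. The group of 27 was led by Igfbp6, Lum, Rps27a, Col1a1 and Col18a1, with Lum at 1145 CPM against 290 CPM and Col1a1 at 4731 CPM against 1667 CPM in the other selected nuclei of that library.

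The group of 13 was led by Nabp1, Cd163, F630028O10Rik, Clec10a and Retnla. All 13 nuclei held at least 3 genes of another type. Macrophage genes summed to 4963 CPM, lymphocyte genes to 2016 CPM and genes of lymphoid stroma to 2434 CPM. At least 3 macrophage genes were held by 9 of the 13 nuclei and at least 3 lymphocyte genes by 10. Both nuclei of that library that were marked as likely doublets were in it. The group of 3 was led by Ugcg, Cxcl12, Vegfa, Birc2 and C3, with Cxcl12 at 2603 CPM against 189 CPM and genes of lymphoid stroma summed to 4134 CPM, and all 3 nuclei held at least 3 such genes. The leading macrophage genes of the group of 13 go against the label of preadipocyte.

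In the KO-labelled library the groups held 41, 36, 16 and 9 nuclei. The group of 41 had a median depth of 4590 UMIs and a mean of 5.93 selecting genes, and was led by Sdk1, Top2a, Sned1, Pde11a and Ranbp17. Sdk1 was at 597 CPM against 112 CPM and Pde11a at 1480 CPM against 360 CPM in the other selected nuclei of that library, while the 14 UMIs of Top2a came from 2 nuclei. The group of 36 had a median depth of 2091 UMIs and was led by Gm26870, Ablim3, Klra8, Adgrl4 and Flt1, each found in 1 nucleus, so it had no leading gene beyond single nuclei. The group of 16 was led by Pex5l and St6galnac3, each found in 1 nucleus, and by Gsn, Col1a1 and Igfbp6. Gsn, gelsolin, was at 22670 CPM against 3360 CPM and Col1a1 at 8675 CPM against 1228 CPM. The group of 9 is the one led by Lin7a and Myh11.

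Fibrillar collagen genes summed to 39557 CPM in the group led by Gsn and Col1a1 and to 9548, 9540 and 3311 CPM in the other groups labelled KO. In the WT-labelled library they summed to 15686, 24616, 4868 and 3062 CPM, with the most in the group led by Igfbp6 and Lum. Each library therefore held a group high in Col1a1 and Igfbp6, of 27 nuclei and of 16 nuclei. Basement membrane genes summed to 18093 CPM in the group of 16.

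**Figure D5:**
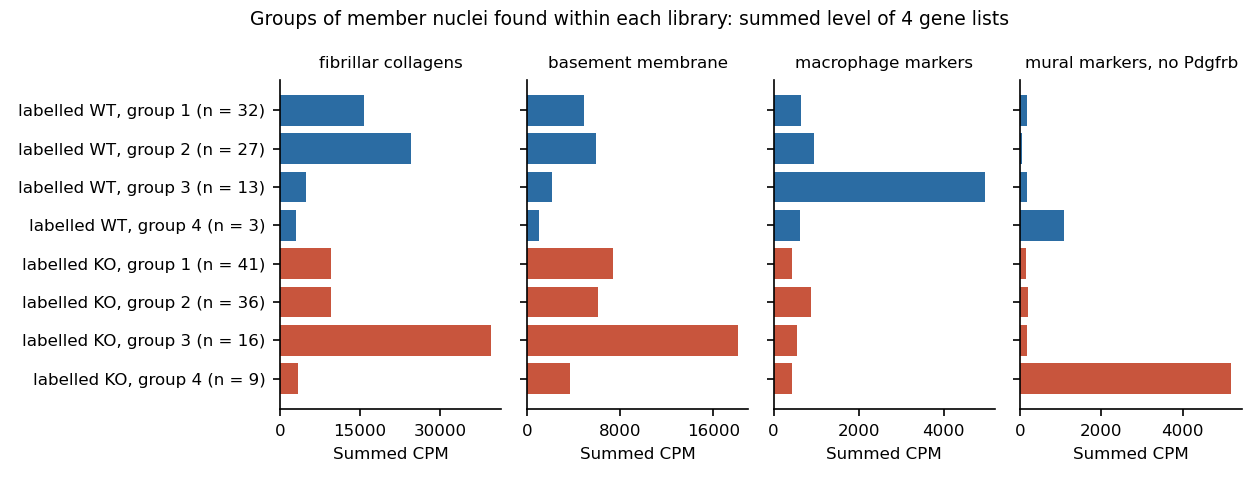
Summed levels in CPM of fibrillar collagen, basement membrane, macrophage and mural genes (without Pdgfrb) in the 4 groups of selected nuclei of each library. Fibrillar collagen genes peak at 39557 CPM in the group of 16 nuclei labelled KO, macrophage genes at 4963 CPM in the group of 13 labelled WT and mural genes at 5207 CPM in the group of 9 labelled KO.

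Levels also differed with the number of selecting genes a nucleus held, which rises with depth. In the KO-labelled library, nuclei with 3, with 4 or 5 and with 6 or 7 selecting genes had median depths of 2071, 2373 and 4552 UMIs. Pde11a was at 79.9, 905 and 1194 CPM in them, Smoc2 at 352, 480 and 815 CPM and Dcn at 1870, 3044 and 3446 CPM. Pparg went the other way, at 1278, 469 and 408 CPM, and so did the pericyte gene Rgs5, at 304, 32.7 and 0 CPM. Genes of another cell type were held by 12 of 23, 3 of 35 and 8 of 44 of these nuclei. In the WT-labelled library, where 3 nuclei held 6 or 7 selecting genes, Pde11a was at 115, 254 and 524 CPM and Pparg at 282, 118 and 175 CPM, while Smoc2 was at 180, 237 and 175 CPM and Dcn at 1283, 2394 and 699 CPM.

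Cell cycle genes summed to 81.9 and 183 CPM in the selected nuclei, and 60 of the 66 UMIs labelled KO came from 3 nuclei. Myofibroblast genes summed to 621 and 941 CPM, against 271 and 355 CPM in all other nuclei. Interstitial nuclei held them at 439 and 529 CPM and regulatory nuclei at 783 and 541 CPM. Mature adipocyte genes summed to 1609 and 4219 CPM, against 7186 and 19076 CPM in all other nuclei and 1406 and 3527 CPM in interstitial nuclei.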

How the data were processed

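Nuclei of iWAT were profiled with 10x Genomics 3' v3.1 chemistry. The deposited values are raw UMI counts per gene and barcode, made by the authors with Cell Ranger 6.1.1 per the file headers. The submitters' processing notes name mm10 and Seurat 4. Each matrix held 5000 barcodes and 31053 genes. The members and gene lists were chosen with earlier results of these data known, and nothing here is independent support for them. Counts were summed per class and library and divided by the class total. The genotype contrast needed 50 counts over both libraries, and a class contrast 20 counts over the 2 classes in each library. Intervals were Clopper-Pearson for shares, exact Poisson for levels and conditional binomial for ratios, at 95%. With 1 library per genotype no p-value was computed. A gene at 0 was set to a floor of 3 counts over the class.

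Any gene on the lists could be named. Named by rule were the 12 with the largest smaller ratio over all other nuclei (at least 30 counts in each library), the 8 largest and 8 smallest of each class contrast, the 5 largest and 5 smallest between libraries and the 5 leading genes of each group. Of the 5 smallest between libraries, 1 is not reported here. Lsp1, Maf and Ablim1 fall outside both and were named after their values were seen. Doublets were scored with Scrublet in scanpy 1.11.5. Its automatic threshold marked 0 nuclei in the WT-labelled library, so the top 4% were marked there. It marked 92 (3.125%) in the KO-labelled library. These marks covered 2 selected nuclei in each library, and marked nuclei were kept. Groups within a library came from 400 variable genes and 8 components. Thinning drew 1000 UMIs per nucleus and left out shallower nuclei, 2 selected nuclei of the WT-labelled library and 0 of the KO-labelled library. The calculations were tested on simulated data, drawn as Poisson sums without variation between nuclei or between libraries. Python 3.11.15, numpy 2.4.6, scipy 1.17.1 and scikit-learn 1.9.0 were used, with edgeR 4.0.16 for TMM scaling only. Alternatives covered the rule, depth, doublets, mixed nuclei, totals, count minimums, intron length and the macrophage ratio. The alternative without mixed nuclei (those with at least 3 genes of a macrophage, lymphocyte, endothelial, mural, myocyte or epithelial list) was chosen after seeing the data.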

Additional observations from a re-analysis of the deposited data

Results flagged for a closer look

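Of the listed genes compared between selected and interstitial nuclei, 3 went in opposite directions in the 2 libraries with both intervals clear of 1. Col8a1, a short-chain collagen, had a ratio of 0.253 (0.0491 to 0.827) in the WT-labelled library and 2.08 (1.16 to 3.60) in the KO-labelled library. Thbs1, thrombospondin, had 0.301 (0.115 to 0.667) and 3.32 (1.63 to 6.63). Cd163, a macrophage scavenger receptor, had 6.95 (2.67 to 21.3) and 0.155 (0.0497 to 0.371), and its 19 UMIs in the WT-labelled library came from 2 nuclei of the group with macrophage genes. With 1 library per genotype the difference between libraries was not tested for any of them.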

How the results depend on the processing

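No paired analysis was possible because each genotype has 1 library, which also leaves no replicate to leave out. Shares depended on the rule. In the WT-labelled library the share of kept nuclei was 1.15% with at least 4 selecting genes, 3.91% among nuclei with at least 1000 genes, 1.32% with no adipocyte gene allowed and 1.32% without mixed nuclei (those with genes of another cell type), and the share of stromal nuclei 21.5% and 19.3% with at least 4 genes and without mixed nuclei. In the KO-labelled library the share of kept nuclei was 2.68%, 2.00%, 6.54% and 2.68% with at least 4 genes, with no adipocyte gene, after thinning and without mixed nuclei, and the share of stromal nuclei 21.5%, 29.3% and 14.4% under the last 3.

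Genes at least 2-fold higher in the KO-labelled library numbered 382 with no adipocyte gene, 1146 after thinning, 442 without mixed nuclei, 1736 with a minimum of 10 counts, 387 after the intron correction and 237 after division by the macrophage ratio. Those lower numbered 109, 333, 97 and 827 under the first 4, 338 without mitochondrial genes and Malat1, and 133 after the macrophage division. Genes higher than in interstitial nuclei numbered 37 (at least 1000 genes), 34 (no adipocyte gene) and 26 (minimum of 50 counts), and lower genes 104 and 103 under the first and last. Genes higher than in regulatory nuclei numbered 1 with at least 4 genes, without marked doublets, with no adipocyte gene and without mixed nuclei, 12 after thinning and 8 with TMM, and lower genes 11 with at least 1000 genes, 41 after thinning, 12 with TMM and 12 with a minimum of 50 counts.

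Single genes changed sign on the log2 scale. In the WT-labelled library applying the rule after thinning moved Alcam from -1.57 to 1.56 and Smoc2 from 1.95 to -0.21 against interstitial nuclei, and Vegfd became -0.42 between libraries. After the intron correction the KO/WT values were -0.027 for Pde11a, -0.16 for Gria3, -0.61 for Adamtsl1, -0.21 for Thsd7a, -1.11 for Esr1, -0.92 for Ntrk2, -0.56 for Adamts12 and -0.21 for Abi3bp. After the macrophage division they were 0.18 for Adam33, 1.47 for Fzd1, -1.07 for Pparg, -2.93 for Fgfr2, -0.67 for Esr1, -0.34 for Thrb, -1.17 for Egfr, -0.23 for Stat5b, -1.32 for Fkbp5, 0.68 for Malat1 and 1.67 for Ms4a4b. The cause of these changes was not tested. The 10 regulatory nuclei labelled WT and 75 selected nuclei labelled WT limit what differences could be seen.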
